A study of Homo sapiens with 4 samples.

Results

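Keratin genes were followed in A549 tumor xenografts. A549 is an established human lung adenocarcinoma cell line. A gene was taken as a keratin gene when its symbol was KRT, a number and at most 1 letter, which left out antisense names and gave 55 of the 38137 genes in the tables. The 55 genes were placed by their known use in tissues into 6 classes of 5 simple epithelial, 8 basal and activated, 13 differentiated or cornea, 9 hair root sheath, 17 hair and 3 other keratins.

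The tumors were grown in the flank of male BALB/c athymic nude mice, 6 weeks old and lacking the thymus that T cells need. All 4 groups carried tumors of A549 cells, and the control group received neither treatment. The exercise group ran on a treadmill at 8.0 m/min for 30 min, the radiation group received 2 Gy of X-rays to the tumor, and the combination group received both, with the run ahead of the radiation on the same day, in 3 sessions per week for 2 weeks. Mice were anesthetized for radiation, and whether the other groups were anesthetized is not stated. The study assigned 5 mice to each group, but each group had 1 RNA library, and whether it came from 1 tumor or a pool is not given in the sources used here. There is no replicate, so no difference below has a test, and every comparison is between 2 libraries. Each interval is an exact 95% interval that covers counting error only.

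Keratins are the intermediate filament proteins of epithelial cells. An acidic type I chain pairs with a basic type II chain, and the pairs build filaments anchored at desmosomes and hemidesmosomes. KRT8 with KRT18 is the pair of simple epithelia such as the lining of the lung, KRT5 with KRT14 is the pair of the basal layer of stratified epithelia, and KRT6, KRT16 and KRT17 are known for their induction in wounded and hyperproliferating skin. Hair keratins, such as KRT81, KRT83, KRT85 and KRT86, form the hard fibre of hair and nail. In the reference (GRCh38), the 26 type II genes and the type I gene KRT18 lie on chromosome 12 and the other 28 type I genes on chromosome 17.

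The libraries held 33432637 to 35408705 reads in genes, and the keratin genes took 0.788% of them in control, 0.830% after exercise, 0.694% after radiation and 0.785% in the combination. The label of a lung epithelial line was checked with 8 epithelial and A549 markers, all of which were detected, among them CDH1, the junction protein E-cadherin, with 5521 to 6053 reads. The median log2 ratio of these 8 against control was 0.12 after exercise, 0.04 after radiation and 0.15 in the combination. Single markers ranged from -0.10 to 0.74, from -0.44 to 1.28 and from -0.30 to 1.09 in the same order. Only ALDH3A1 was called, at 2.42-fold of control after radiation (2.78% of all genes were called) and 2.13-fold in the combination (4.01%). Of 6 alveolar markers, SFTPD alone passed the minimum for comparison, with 112 to 184 reads, and SFTPC, which defines the type II alveolar cell, had 0 to 3 reads. Reads were aligned to the human genome, so that reads of host tissue that match a human gene are counted with it, and host markers are given beside the results they touch. In such bulk tissue, fewer cells of a type and less RNA per cell cannot be told apart.

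Of the 55 keratin genes, 24 had a mean of at least 20 reads over the 4 libraries and were compared. The other 31 held 61 reads together in control, 28 after exercise, 76 after radiation and 49 in the combination. Among these 31 genes, 12 had no read in any library, and a further 17 had some reads but never more than 7 in a library. The 3 with the most reads were KRT23 with 22 reads in control, 9 after exercise, 28 after radiation and 15 in the combination, KRT39 with 17, 7, 24 and 8 in the same order, and KRT9 with 7, 2, 3 and 2. No read was found for KRT1, the main type II keratin of cornified epidermis, and a count of 0 allows up to 3 reads, which is 0.0838 to 0.0926 CPM in these libraries (CPM being read counts scaled to library size, with factors from the trimmed mean of M-values).

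**Figure D1:**
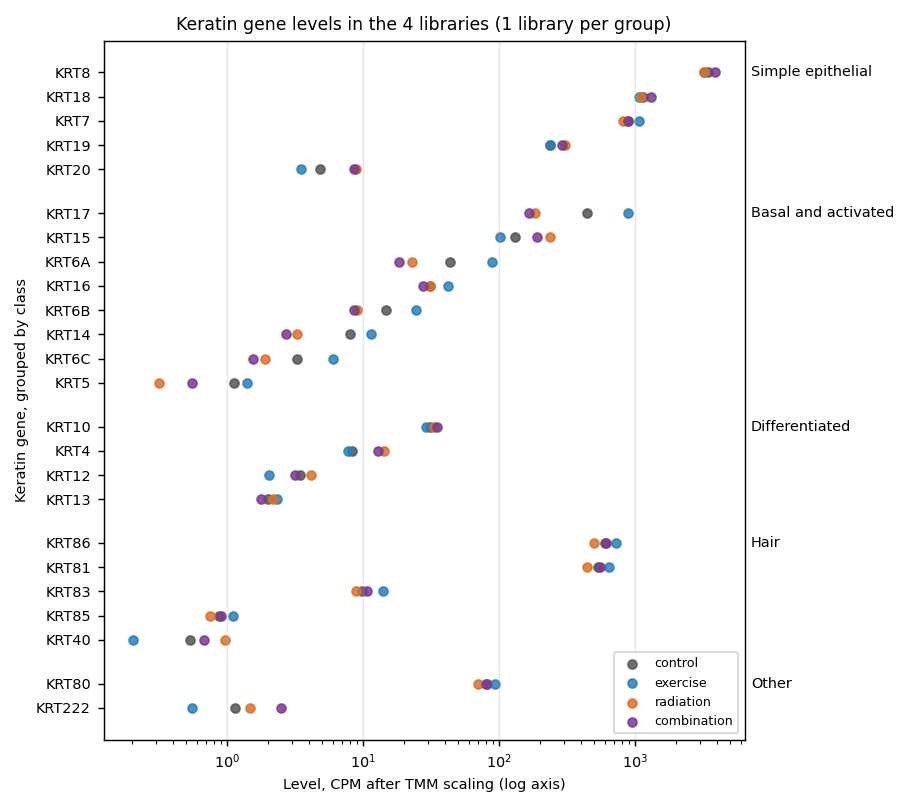
CPM (log axis) of the keratin genes compared, 1 point for each of the 4 libraries, ordered by class. KRT8, KRT18, KRT7, KRT86 and KRT81 stand high in all 4 libraries, while the points of KRT17 spread from 164.5 in the combination to 882.8 after exercise.

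Simple epithelial keratins gave most keratin reads in every library. Their share was 74.4% (74.3 to 74.6) in control, 67.6% (67.4 to 67.7) after exercise, 77.7% (77.6 to 77.9) after radiation and 78.7% (78.5 to 78.8) in the combination. The share was lowest after exercise, where basal and activated keratins had their highest share of 14.1%, against 8.82% in control, 6.97% after radiation and 5.10% in the combination. Hair keratins made up 13.5% to 16.7%, differentiated keratins 0.501% to 0.767% and the 3 other keratins 1.02% to 1.14%. The hair keratin KRT81 lies inside KRT86, so the same reads may be counted under both. The hair share may therefore be too high and the other shares too low. The 9 root sheath keratins had 3 to 6 reads together in each library.

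**Figure D2:**
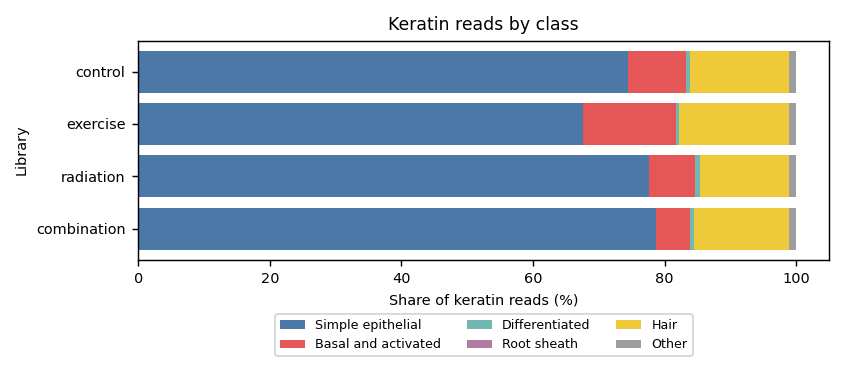
Share of all keratin reads (percent, horizontal axis) from each keratin class in each of the 4 libraries (vertical axis), as stacked bars. The basal and activated class is widest after exercise (14.1%) and narrowest in the combination (5.10%). The hair class may count the same reads under both KRT81 and KRT86.

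KRT8, the type II partner in simple epithelia, had 121729 reads in control, 110279 after exercise, 112527 after radiation and 125804 in the combination. KRT18, its type I partner, had 41042, 36916, 38931 and 42547 reads in the same order. The pair kept close to a fixed ratio, with 296.6 KRT8 reads per 100 KRT18 reads in control, 298.7 after exercise, 289.0 after radiation and 295.7 in the combination. Between groups their CPM differed little, from 0.937-fold (KRT8) and 0.930-fold (KRT18) of control after exercise to 1.14-fold and 1.15-fold of control in the combination. The spans of the genes overlap at their ends on opposite strands (KRT8 chr12:52897191-52949860 and KRT18 chr12:52948855-52952906), so part of their reads may be shared.

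KRT7, a type II keratin of glandular and ductal epithelia, had 31577 reads in control, 36780 after exercise, 28673 after radiation and 28483 in the combination. KRT7 was 1.20-fold of control after exercise and 0.997-fold in the combination. An antisense gene, KRT7-AS, lies over it, and its reads were 23.2 to 24 per 100 KRT7 reads in all 4 libraries, so the 2 genes could not be told apart by their differences between groups. KRT19, a type I keratin without most of the usual tail, had 8423, 8188, 10641 and 9400 reads, which was 1.29-fold of control after radiation and 1.23-fold in the combination. KRT20, a keratin known from intestinal epithelium, had 171, 120, 309 and 277 reads. KRT20 was low, but it was 1.85-fold of control (1.53 to 2.24) after radiation, 1.79-fold (1.47 to 2.18) in the combination and 2.47-fold higher (1.98 to 3.08) in the combination than after exercise.

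On a scale of CPM per kb of merged exons, KRT8 was the highest keratin in control at 742.3, followed by KRT18 at 570.7 and KRT7 at 502.9. KRT81 came next at 277.2, then KRT17 at 266.2, KRT86 at 265.3, KRT19 at 169.3 and KRT15 at 24.9. Merged exons are 4581 bases for KRT8 and 2009 for KRT18, against 1687 and 1562 in a single coding transcript of each. For KRT15 they are 5237 bases, the longest of these and above its gene span of 5146. Levels of different genes on this scale therefore depend on the length used. The deposited FPKM implied a length within 2% of the whole gene span for 18 of the 24 genes compared. Whether reads outside exons were counted was not tested, and it would change these levels and the sums below. Without the reads it may share with KRT81, KRT86 stood at 29.2. On the same scale KRT17 was 534.7 after exercise, 111.0 after radiation and 99.6 in the combination. KRT17 made up 24.7% of the type I sum in control, 40.9% after exercise, 11.4% after radiation and 9.55% in the combination, while KRT18 made up 53.0%, 40.6%, 56.7% and 62.7%. After exercise, then, KRT17 and KRT18 stood at nearly the same share on merged exon length. In reads KRT17 stood at 82.8 per 100 KRT18 reads in that library. A shorter length for KRT18 would raise its share, so this parity depends on the length used. The ratio of the type I sum to the type II sum stayed between 0.535 and 0.641, with KRT86 counted in full. The type II sum was 1844.9 in control, 2038.4 after exercise, 1658.2 after radiation and 1950.5 in the combination. Without KRT86 it was 1579.6, 1720.8, 1440.0 and 1679.9 in the same order, which would raise the ratio in every library.

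The 3 KRT6 genes, type II keratins of wounded epidermis, are near copies of each other. The coding sequence of KRT6B was 97.5% identical to that of KRT6A and that of KRT6C was 97.9% identical. A stretch of 90 bases in exon 2 of each (coding bases 601 to 690) is shown because it makes plain how little tells the 3 genes apart in a read of 100 bases. The sequences are from GENCODE transcripts on GRCh38, at chr12:52491587-52491676 for KRT6A, chr12:52450471-52450560 for KRT6B and chr12:52472131-52472220 for KRT6C, all on the minus strand, with capitals where a base differs from KRT6A.
KRT6A: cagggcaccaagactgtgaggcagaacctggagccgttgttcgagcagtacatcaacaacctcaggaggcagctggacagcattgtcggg
KRT6B: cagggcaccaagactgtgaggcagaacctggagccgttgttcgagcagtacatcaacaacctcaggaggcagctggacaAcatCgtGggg
KRT6C: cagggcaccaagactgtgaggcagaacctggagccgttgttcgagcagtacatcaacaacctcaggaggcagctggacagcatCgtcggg
KRT6B differed at 3 of the 90 bases and KRT6C at 1. Of all 100-base windows of the transcript, 18.2% for KRT6A, 24.6% for KRT6B and 31.7% for KRT6C occurred unchanged in the transcripts of another gene, so the split of reads among the 3 genes is uncertain and their sum is given below as well.

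The type I keratins KRT14, KRT16, KRT17 and KRT15, which lie with KRT19 and KRT9 in a 110.8 kb stretch of chromosome 17, are less alike. Against KRT14 the coding identity was 88.7% for KRT16, 85.2% for KRT17 and 74.1% for KRT15. The stretch that aligns to coding bases 601 to 690 of KRT14 crosses from exon 2 into exon 3 in each gene, at chr17:41584332-41584982 for KRT14, chr17:41611420-41611646 for KRT16, chr17:41622430-41622957 for KRT17 and chr17:41516883-41517090 for KRT15 (minus strand, introns left out below). It is shown because KRT17 and KRT15, which lay on opposite sides of control in every treated group, can be told apart by it, with capitals where a base differs from KRT14.
KRT14: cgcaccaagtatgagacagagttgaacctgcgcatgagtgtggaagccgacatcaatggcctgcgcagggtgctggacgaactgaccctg
KRT16: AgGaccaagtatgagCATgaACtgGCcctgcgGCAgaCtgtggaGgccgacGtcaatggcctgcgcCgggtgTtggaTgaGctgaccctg
KRT17: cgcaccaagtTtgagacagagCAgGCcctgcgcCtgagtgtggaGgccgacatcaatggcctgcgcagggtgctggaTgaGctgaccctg
KRT15: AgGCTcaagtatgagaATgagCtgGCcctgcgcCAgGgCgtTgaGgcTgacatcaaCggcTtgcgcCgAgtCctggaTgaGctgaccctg
KRT16 differed from KRT14 at 19 bases, KRT17 at 9 and KRT15 at 23. In 100-base windows KRT17 shared 0.322% with another gene and KRT15 shared none, against 5.95% for KRT14 and 7.18% for KRT16.

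KRT17, the type I partner of the KRT6 chains in activated epithelium, had the widest spread of the keratins above 100 CPM in control. KRT17 (chr17:41619442-41624575) had 15735 reads in control, 30551 after exercise, 6420 after radiation and 5326 in the combination. The exercise library stood above control, and both irradiated libraries stood below it. KRT17 was 2.01-fold higher (1.97 to 2.05) after exercise than in control, 2.40-fold lower (2.33 to 2.47) after radiation and 2.67-fold lower (2.59 to 2.76) in the combination. Between the combination and exercise the difference was 5.37-fold (5.21 to 5.53), and between the combination and radiation the ratio was 0.897 (0.865 to 0.931). Within a library, where no scaling enters, there were 38.3 KRT17 reads per 100 KRT18 reads in control, 82.8 after exercise, 16.5 after radiation and 12.5 in the combination.

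KRT6A (chr12:52487176-52493257) had 1569 reads in control, 3058 after exercise, 796 after radiation and 596 in the combination, which is the same order of libraries as for KRT17. KRT6A was 2.02-fold higher (1.9 to 2.14) after exercise than in control, 1.93-fold lower (1.77 to 2.1) after radiation and 2.38-fold lower (2.17 to 2.62) in the combination. Per 100 reads of KRT8 there were 1.29 KRT6A reads in control, 2.77 after exercise, 0.707 after radiation and 0.474 in the combination. KRT6B had 523, 851, 316 and 278 reads and KRT6C had 117, 207, 67 and 50. KRT6B and KRT6C were 1.68-fold (1.51 to 1.88) and 1.83-fold (1.45 to 2.32) of control after exercise, and 1.70-fold (1.47 to 1.98) and 2.12-fold (1.51 to 3.01) lower in the combination. The sum of the 3 genes, which does not depend on how reads were split among them, was 1.93-fold higher after exercise, 1.83-fold lower after radiation and 2.16-fold lower in the combination than in control, and 4.17-fold lower in the combination than after exercise.

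KRT14 and KRT5, the pair of basal keratinocytes, were low. KRT14 had 287 reads in control, 397 after exercise, 115 after radiation and 88 in the combination. KRT14 was 1.43-fold of control (1.23 to 1.67) after exercise, 2.44-fold lower (1.96 to 3.06) after radiation and 2.95-fold lower (2.32 to 3.79) in the combination. KRT5 had 40, 48, 11 and 18 reads, with 1.24-fold (0.799 to 1.94) after exercise, 3.56-fold lower (1.79 to 7.69) after radiation and 2.01-fold lower (1.13 to 3.73) in the combination. The exercise interval of KRT5 spans 1, so no difference was detectable at this depth. KRT16, another partner of KRT6, lay closer to control, with 1108, 1459, 1089 and 892 reads. KRT16 was 1.36-fold of control (1.26 to 1.47) after exercise, level with control (0.923 to 1.09) after radiation and 0.890-fold (0.814 to 0.973) in the combination, and there were 7.04 KRT16 reads per 100 KRT17 reads in control and 17 after radiation.

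KRT15, a type I keratin of basal cells and of the hair bulge, lay the other way. KRT15 (chr17:41513745-41518890) had 4668 reads in control, 3499 after exercise, 8320 after radiation and 6149 in the combination. The exercise library was the lowest and the radiation library the highest. KRT15 was 0.775-fold of control (0.742 to 0.810) after exercise, 1.82-fold (1.76 to 1.89) after radiation, 1.46-fold (1.40 to 1.51) in the combination and 1.88-fold higher (1.80 to 1.96) in the combination than after exercise. Per 100 KRT17 reads of the same library there were 29.7 KRT15 reads in control and 11.5 after exercise, against 129.6 after radiation and 115.5 in the combination. Measured against KRT18, KRT15 was 11.4 reads per 100 in control, 9.48 after exercise, 21.4 after radiation and 14.5 in the combination. KRT15 thus exceeded KRT17 in reads in the irradiated libraries and not in the others.

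**Figure D3:**
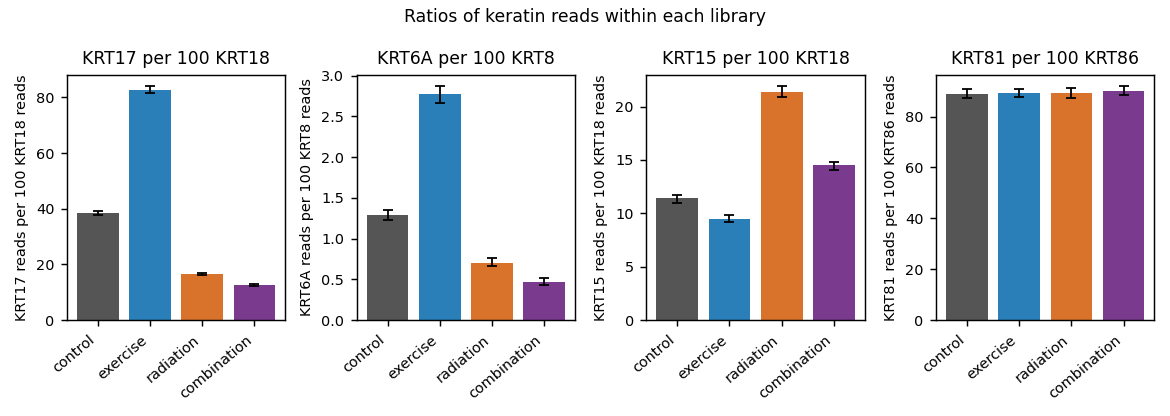
Reads of a keratin per 100 reads of another keratin of the same library (vertical axis of each of the 4 panels), which needs no scaling between libraries, with exact 95% intervals of counting error. KRT17 per 100 KRT18 reads is highest after exercise (82.8) and lowest in the combination (12.5), KRT15 per 100 KRT18 reads is highest after radiation (21.4), and KRT81 per 100 KRT86 reads stays at 89.0 to 90.1.

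Markers of skin were read beside these basal keratins, since the tumors lay under the skin. Of 27 epidermal genes in the table, 8 passed the minimum for comparison and 4 had no read in any library (LORICRIN, SPRR2A, SPRR2D and CALML5, with the genes outside the minimum named after their values were seen). IVL, a defining protein of the cornified envelope, had 0 reads in 3 libraries and 1 in the combination, DSG1, a desmosomal cadherin of upper epidermis, had 3 to 11 reads, and DSG3, its basal counterpart, had 5 in control, 10 after exercise, 1 after radiation and 2 in the combination. DSC3, a further desmosomal cadherin, was present with 319 to 430 reads, most after radiation. The summed level of the 27 genes was 101.4 CPM in control, 95.3 after exercise, 116.5 after radiation and 112.5 in the combination, and ASPRV1 and DMKN gave most of it. LY6D, a surface protein of stratified epithelium, had 11 reads in control, 11 after exercise, 60 after radiation and 45 in the combination. TGM3, a crosslinking enzyme of epidermis and hair, had 142, 118, 249 and 288. Of the 8 epidermal genes compared, FLG and LY6D were called higher than control after radiation (1.86% of all genes were) and TGM3 and LY6D in the combination (2.37% of all genes were), and the median log2 ratio was 0.03 after exercise, 0.44 after radiation and 0.21 in the combination. The epidermal genes had no common order of libraries. LY6D and TGM3 were highest in the irradiated libraries, the few DSG3 reads were highest after exercise and lowest in the irradiated libraries, as for KRT5, KRT14 and KRT17, TGM1 was highest after exercise with 101, 158, 133 and 108 reads, and CDSN was lowest in the combination with 241, 193, 207 and 126. Host skin as a source of the keratin reads was not tested further, since no mouse sequence was used here.

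The class of differentiated and cornea keratins was present through 4 of its 13 genes. KRT10, the type I keratin of differentiating epidermis, had 1110 reads in control, 1002 after exercise, 1153 after radiation and 1135 in the combination, while its epidermal partner KRT1 had none. An antisense gene, KRT10-AS1, had 490 to 693 reads. KRT4, a keratin of the lining of mouth and esophagus, had 298, 267, 499 and 414 reads and was 1.71-fold of control (1.48 to 1.98) after radiation and 1.54-fold in the combination. KRT13, its type I partner, had 72, 81, 76 and 57 reads, with no such order. KRT12, a cornea keratin, had 124, 70, 144 and 102 reads and was 0.584-fold of control (0.429 to 0.789) after exercise.

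Hair keratins took their reads almost wholly from KRT81 and KRT86, which held 98.8% to 99.0% of the reads of the class. Their coding sequences are alike, with 94.2% identity of KRT86 to KRT81, 93.4% of KRT83 and 86.9% of KRT85. The stretch that aligns to coding bases 601 to 690 of KRT81 is shown because it bears on whether their reads can be assigned, with capitals where a base differs from KRT81. It crosses an exon junction in each gene, exon 3 to 4 in KRT81 (chr12:52288406-52289253, minus strand), KRT83 (chr12:52317726-52317948, minus) and KRT85 (chr12:52364113-52364344, minus) and exon 5 to 6 of the transcript used for KRT86 (chr12:52304133-52304982, plus), and introns are left out.
KRT81: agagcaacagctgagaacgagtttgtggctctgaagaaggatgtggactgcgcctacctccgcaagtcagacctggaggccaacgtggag
KRT86: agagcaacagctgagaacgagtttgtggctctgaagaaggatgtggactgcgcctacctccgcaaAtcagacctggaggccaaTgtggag
KRT83: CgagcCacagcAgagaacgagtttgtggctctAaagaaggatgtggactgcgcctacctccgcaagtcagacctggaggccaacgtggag
KRT85: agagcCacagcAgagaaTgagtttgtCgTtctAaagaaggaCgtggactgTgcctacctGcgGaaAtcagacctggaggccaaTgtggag
KRT86 differed at 2 of the 90 bases, KRT83 at 4 and KRT85 at 12. Of 100-base windows, 30.3% for KRT81 and 28.0% for KRT86 occurred unchanged in the transcripts of another gene, and none did for KRT83.

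A second limit lies in the position of the genes. In the reference annotation KRT81 (chr12:52285913-52291534, minus strand) lies wholly inside the span of KRT86 (chr12:52274645-52309163, plus strand). KRT81 had 19143 reads in control, 22184 after exercise, 15447 after radiation and 17877 in the combination, and KRT86 had 21514, 24897, 17312 and 19848. KRT86 exceeded KRT81 in each library, by 2371, 2713, 1865 and 1971 reads, and KRT81 stood at 89.0, 89.1, 89.2 and 90.1 reads per 100 KRT86 reads. Across the table, of 282 pairs in which a gene with at least 100 reads in each library lies inside another on the opposite strand, the outer gene had at least as many reads as the inner in all 4 libraries in 264 (93.6%). The libraries were stranded, but the strand setting of the counting is not given in the sources used here. KRT81 and KRT86 can therefore not be read as separate measurements, and the reads of KRT86 beyond those of KRT81 were 53.2 to 78.4 CPM.

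Both genes differed modestly between groups. KRT81 was 1.20-fold of control after exercise, 0.825-fold after radiation and 1.03-fold in the combination, and KRT86 was 1.20-fold, 0.822-fold and 1.02-fold. KRT83, a further hair type II keratin that does not overlap them, had 348, 484, 312 and 344 reads, highest after exercise at 1.44-fold of control. KRT85 had 31, 38, 26 and 29 reads. KRT40, a type I hair keratin, had 19, 7, 34 and 22, which is few for a comparison.

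Other hair genes differed, with most keratin-associated protein genes at 0 and most hair follicle genes above the minimum for comparison. Of 93 keratin-associated protein genes, which form the matrix of the hair fibre, 77 had no read in any library and only KRTAP5-1 (48, 75, 35 and 58 reads) and KRTAP5-2 (55, 64, 50 and 34) passed the minimum. Of the type I hair keratins that pair with KRT81 and KRT86 in hair, KRT31, KRT33A, KRT33B and KRT35, named after their values were seen, had no read in any library. The 15 hair keratins other than KRT81 and KRT86 had 416, 539, 404 and 411 reads together. Of 9 hair follicle genes, 6 passed the minimum. HOXC13, a homeobox regulator of hair keratin genes, had 753 reads in control, 578 after exercise, 813 after radiation and 809 in the combination, and PADI3, an enzyme that modifies hair proteins, had 13, 21, 40 and 26. S100A3, a calcium-binding protein of the hair cuticle, had 412, 479, 296 and 319 reads, which was 1.20-fold of control after exercise, 0.734-fold after radiation and 0.856-fold in the combination, and TCHH, a protein of the inner root sheath, had 35, 53, 29 and 28. These were highest after exercise, as were KRT81 and KRT86, while HOXC13 was lowest there. GPRC5D had 258, 224, 239 and 161 reads and VSIG8 had 151, 132, 161 and 123. The median log2 ratio of the 6 genes against control was 0.06 after exercise, 0.02 after radiation and -0.16 in the combination. The summed level of these 9 genes was 43.2 to 45.6 CPM. The hair keratin class ranged from 946.8 to 1376.0 CPM, in which reads of KRT81 may be counted under KRT86 as well. Whether hair follicles of the host gave part of the KRT81 and KRT86 reads was not tested.

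Exercise alone was compared with control to ask what running does to the tumor without radiation. At 2-fold, 2 of the 24 keratin genes were higher (KRT6A and KRT17) and 2 were lower (KRT40 and KRT222), which is 16.7% against 1.53% of the 19393 genes compared (0.830% higher and 0.696% lower). The median log2 ratio was 0.24 over the keratin genes, 0.63 over the 8 basal and activated keratins and 0.003 over all genes. Of these 8, 7 were above control and KRT15 was below it. KRT222, a keratin-like gene, had 41 reads in control, 19 after exercise, 51 after radiation and 80 in the combination, 0.479-fold of control (0.263 to 0.845) after exercise, and 56.5% of its 100-base windows occur in another gene. KRT40 was 0.381-fold (0.135 to 0.947), on 7 reads. Both calls of higher genes lay at the edge of the threshold, and scaling by total reads alone gave 0 higher and 2 lower genes.

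Radiation alone was set against the same control library, so the 2 comparisons are not independent. Against control, 0 keratin genes were higher and 3 lower (KRT5, KRT14 and KRT17), which is 12.5% against 2.78% of all genes (1.86% higher and 0.923% lower). The median log2 ratio was -0.09 over the keratin genes, -0.86 over the basal and activated class and -0.006 over all genes. KRT6A, KRT6B and KRT6C lay below control by less than 2-fold, KRT16 was level with it and KRT15 was above. The hair class had a median of -0.22 and the differentiated class 0.18.

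The combination was compared with the same control library. Of the keratin genes, 1 was higher (KRT222, 2.16-fold, 1.46 to 3.22) and 4 lower (KRT6A, KRT6C, KRT14 and KRT17), which is 20.8% against 4.01% of all genes (2.37% higher and 1.63% lower). KRT5, at 2.01-fold lower, was not called because calls used log2 ratios with a prior of 0.5 reads. KRT6A and KRT6C are near copies and not separate measurements, and the sum of the 3 KRT6 genes was 2.16-fold lower. The median log2 ratio was 0.04 over the keratin genes, -1.03 over the basal and activated class, 0.20 over the simple class and 0.005 over all genes. The median of all keratin genes thus lay near 0 while that of the basal and activated class did not.

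The combination was then set against radiation alone, which asks what exercise added to radiation. No keratin gene differed by 2-fold, against 1.24% of all genes (0.469% higher and 0.768% lower), and the median log2 ratio was -0.05 over the keratin genes and 0.028 over all genes. KRT6A was at 0.810 of its radiation level (0.727 to 0.902), KRT17 at 0.897 and KRT15 at 0.799. KRT8 and KRT18 were 1.21-fold and 1.18-fold of radiation, KRT81 was 1.25-fold and KRT222 was 1.70-fold (1.18 to 2.46). The combination against exercise alone asks the converse, what radiation added to exercise, and uses the same combination library. Here 3 keratin genes were higher (KRT222, KRT20 and KRT40) and 6 lower (KRT6A, KRT6B, KRT6C, KRT5, KRT14 and KRT17), which is 37.5% against 5.93% of all genes (3.01% higher and 2.92% lower). Of the lower genes KRT17 was lower by 5.37-fold, KRT6A by 4.80-fold (4.40 to 5.25), KRT14 by 4.22-fold (3.34 to 5.38), KRT6C by 3.87-fold (2.83 to 5.39), KRT6B by 2.86-fold (2.5 to 3.29) and KRT5 by 2.5-fold (1.43 to 4.56). All 6 belong to the basal and activated class, whose median log2 ratio was -1.73, against -0.22 over the keratin genes and 0.003 over all genes. The 3 KRT6 genes among them are near copies and not separate measurements, and their sum was 4.17-fold lower.

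**Figure D4:**
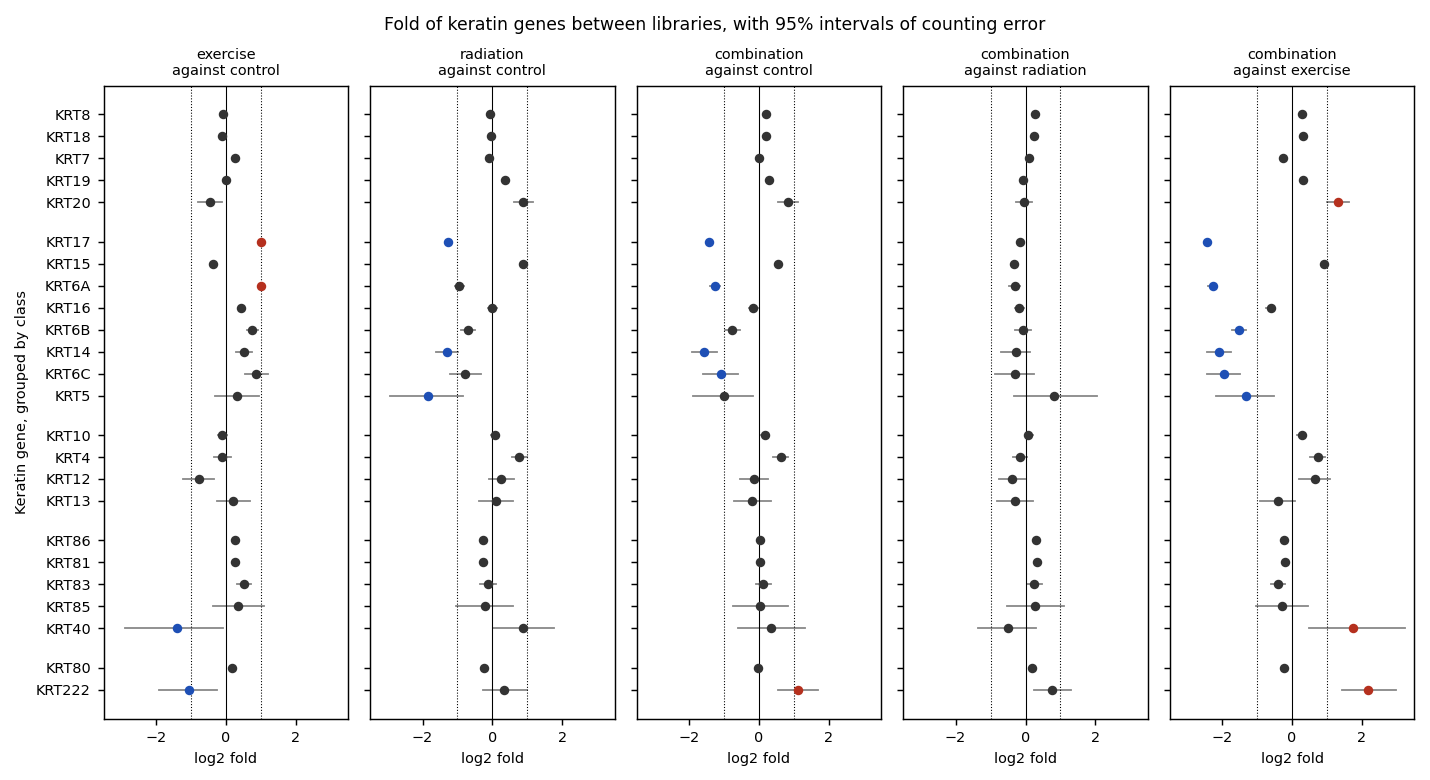
Log2 ratio (horizontal axis) of each of the 24 keratin genes compared, in 5 comparisons between libraries, with exact 95% intervals of counting error. Dotted lines mark 2-fold, and red and blue points are the genes called higher and lower. KRT17 and KRT6A lie right of 0 for exercise over control and left of 0 in the other comparisons, and KRT15 lies opposite to them except for combination over radiation, where all 3 lie left of 0.

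The other keratins, KRT80 and KRT222, showed no common order. KRT80, a type II keratin found in many epithelia, had 2929 reads in control, 3207 after exercise, 2447 after radiation and 2579 in the combination. KRT222 had its reads given above, and its counts were highest in the combination.

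Genes that work with keratins were read from lists. Among 17 desmosome and hemidesmosome genes, all of which were compared, the median log2 ratio was 0.11 after exercise, 0.01 after radiation and -0.10 in the combination against control. COL17A1, a collagen of the hemidesmosome, had 1220 reads in control, 978 after exercise, 2918 after radiation and 2287 in the combination, 2.44-fold of control (2.29 to 2.62) after radiation and 2.07-fold (1.93 to 2.22) in the combination. Its order of libraries was that of KRT15. EPPK1, a plakin that binds keratin filaments, had 143, 151, 70 and 58 reads and was 2.23-fold lower (1.63 to 3.08) in the combination, and PPL, a plakin of the cornified envelope, had 1487, 1264, 1013 and 767. In the combination COL17A1 was the only gene of the 17 called higher than control and EPPK1 the only one called lower, 11.8% of the list against 4.01% of all genes.

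Of 12 epithelial regulators compared, 0 were called in any comparison with control. Of all genes, 1.53% were called after exercise, 2.78% after radiation and 4.01% in the combination, so 0 of 12 is near the share over all genes. The median log2 ratios of the regulators were 0.02 after exercise, -0.01 after radiation and -0.11 in the combination. TP63, the p53 relative that governs basal keratin genes and is named here after its values were seen, had 2737 reads in control, 3003 after exercise, 1893 after radiation and 1827 in the combination. TP63 was 1.13-fold of control (1.08 to 1.20) after exercise, 1.41-fold lower (1.33 to 1.5) after radiation and 1.36-fold lower (1.28 to 1.44) in the combination. ELF3, an epithelial Ets factor, had 11521, 12027, 13632 and 15326 reads. Of 11 other intermediate filament genes compared, the median log2 ratio was 0.26 after exercise, 0.17 after radiation and 0.17 in the combination. LMNB1, a nuclear lamin that is high in dividing cells, had 847, 1265, 360 and 460 reads and was 2.3-fold lower (2.03 to 2.61) after radiation. DES, the filament of muscle, had 39, 39, 76 and 146 reads. The list of skeletal muscle markers, 12 genes with DES among them, summed to 44.2 CPM in control, 51.6 after exercise, 80.7 after radiation and 89.8 in the combination. Markers of fibroblasts summed to 405.1, 414.9, 286.6 and 252.4 CPM and markers of macrophages to 374.9, 365.9, 429.6 and 503.5. CSF1R gave most of the macrophage sum, with 9933 reads in control, 9221 after exercise, 8311 after radiation and 8208 in the combination. ITGAM was also below control in both irradiated libraries (253, 295, 192 and 202 reads). CD68 (1583, 1540, 3526 and 3594), LYZ (1493, 1414, 2845 and 4055) and CD14 (37, 50, 62 and 79) were above control there. ADGRE1 (106, 119, 82 and 113) lay on both sides of control. PTPRC and AIF1 were below the minimum for comparison. The median log2 ratio against control was 0.00 after exercise, -0.64 after radiation and -0.90 in the combination for fibroblast markers, and 0.11, 0.27 and 0.73 for macrophage markers. For muscle markers it was 1.33, 2.61 and 3.47. Of the 10 muscle genes compared, 5 were called higher after exercise, 6 after radiation and 7 in the combination. Of all genes, 0.830%, 1.86% and 2.37% were called higher in the same order. The muscle calls rest partly on genes with almost no reads in control, where MYH1, MYH2 and MYH7 had 0, MYH4 had 1 and CKM had 2. The part of muscle, fibroblast and macrophage markers in the keratin differences was not tested.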

How the data were processed

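RNA of A549 xenografts was measured in 4 groups with 1 library each, mapped by the treatment label. Libraries were polyA-selected and stranded, and reads were trimmed (cutadapt, from the submitters' processing notes), aligned to GRCh38 with Bowtie2 2.3.4.1 and counted with featureCounts 1.6.0. The sources used here give neither the strand setting of the counting, the treatment of reads with several matches nor any pooling. The authors deposited whole-number read counts for 38137 genes, which were used for all main values. The authors also deposited FPKM values, used as an alternative only. The length implied by FPKM and counts was within 2% of the whole gene span for 18 of the 24 keratin genes compared. The exceptions were KRT12, KRT20 and KRT40 at 2.00 times the span, KRT15 at 1.59, KRT86 at 1.12 and KRT7 at 0.859. The reason for these was not tested.

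Library sizes were scaled with TMM factors over all genes (edgeR 4.0.16, R 4.3.3), which were 1.035 in control, 1.009 after exercise, 0.989 after radiation and 0.969 in the combination. Folds are ratios of scaled counts. Intervals are exact Clopper-Pearson intervals at 95% and, like the floor of 3 counts, cover counting error only. A gene was compared with a mean of at least 20 counts and called at 2-fold, on log2 ratios with a prior of 0.5 counts. A contrast of 2 single libraries has no test, and no model over the 4 libraries together was fitted. Levels per exon length used merged exons of GENCODE 29, and gene positions are from RefSeq (GRCh38.p14). Alternatives were total-count and DESeq2 1.42.0 scaling, TMM over the compared genes, other minimums, priors and thresholds. Further alternatives were FPKM, exon length, near-identical genes summed and KRT86 less KRT81. TMM over the compared genes and KRT86 less KRT81 were chosen after seeing the data.

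The keratin genes, their classes and the 11 other gene lists were chosen with earlier results of these data known. All keratin genes above the minimum are named, with the 3 highest of the others. Of other lists the 2 highest and the 2 lowest in the combination against control may be named, and further genes named were chosen after their values were seen. Further steps used python 3.11.15, numpy 2.4.6, pandas 2.3.3, scipy 1.17.1, biopython 1.88 and matplotlib 3.10.9.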

Additional observations from a re-analysis of the deposited data

Results flagged for a closer look

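Exercise differed in direction between unirradiated and irradiated tumors for 3 keratin genes that were called in the first of the 2 settings. KRT17 was 2.01-fold of control after exercise alone, but 0.897-fold of radiation when exercise was added to radiation. KRT6A was 2.02-fold and 0.810-fold in the same order. KRT222 went the other way, with 0.479-fold of control and 1.70-fold of radiation. In each case both intervals of counting error lay apart from 1. Of the 24 keratin genes compared, 6 (25%) met that condition with opposite directions, against 1777 of 19393 genes compared in all (9.16%). Genes with many reads have narrower intervals and meet the condition more easily. There is 1 library per group, so that none of these differences was tested.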

How the results depend on the processing

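Of 735 values of single keratin genes under alternative settings, 651 moved by no more than their counting interval, 84 moved further and 0 changed direction after being called. The count of keratin genes at 2-fold depended on the settings. The share over all genes was computed at the main settings only, so the counts below show dependence on settings and cannot be set against all genes. In exercise against control (4 called, 2 higher and 2 lower), total-count scaling gave 2, none of them higher, a minimum of 100 counts 2, FPKM 0, a 1.5-fold threshold 7, a 4-fold threshold 0 and no minimum 14 of 37. In radiation against control (3 called), a 1.5-fold threshold gave 10, a 4-fold threshold 0 and no minimum 13 of 40. In the combination against control (5 called), FPKM gave 3, a 1.5-fold threshold 9, a 4-fold threshold 0 and no minimum 16 of 41. In the combination against radiation (0 called), a 1.5-fold threshold gave 2 and no minimum 11 of 42. In the combination against exercise (9 called), a 4-fold threshold gave 4 and no minimum 18 of 39. With fewer reads required, more genes with few reads enter, by construction. KRT5 in the combination against control passed 2-fold with total-count scaling, with a prior of 0.1 and with TMM over the compared genes.

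The share of keratin reads from simple keratins was 64.0% in control, 53.8% after exercise, 70.2% after radiation and 71.7% in the combination by FPKM, 68.1%, 59.9%, 73.9% and 74.1% per exon length, and 80.0%, 73.3%, 83.0% and 84.4% when KRT81 reads were taken from KRT86. Exercise stayed lowest in each. No paired analysis was possible because each group has 1 library, and for the same reason no replicate could be left out. Adding pseudogenes was not run, as the table names 0 keratin pseudogenes. The spread between mice of a group was not measured, and for genes under about 100 reads counting error alone spans a large part of the fold.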
